A study of Mus musculus with 80 samples.

Results

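Border-associated macrophages are the resident macrophages of the brain's perivascular spaces, meninges and choroid plexus. The genes described here are 8 transcripts used as their markers (Mrc1, Cd163, Lyve1, Stab1, Pf4, F13a1, Ms4a7 and Cbr2), found by gene symbol in both deposited expression tables. They were 8 of 15919 genes listed for the comparison of sorting methods and 8 of 16000 genes listed for the comparison of cell preparations. The rule uses the symbols alone and no measured value, but the members were chosen with earlier results of these data known.

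The study compared how microglia isolated in different ways differ in their RNA. It used 80 libraries in 20 groups from 22 Cx3cr1-NuTRAP mice, labelled Cx3cr1(Jung)-cre/Ert2+;NuTRAP+, that received tamoxifen by daily injection at 100 mg per kg at about 3 months of age. All groups shared this genotype and treatment, and no library from an untreated or Cre-negative mouse was analysed here. Every group held 4 mice, except autoMACS to Tyto with 3 and Tyto with 5. In these mice tamoxifen switches on an eGFP tag on the ribosomes of cells with an active Cx3cr1 gene, and ribosome-bound RNA is then pulled down with an anti-GFP antibody (translating ribosome affinity purification, TRAP), so each preparation gave an Input library (RNA before the pull-down) and a TRAP library. Cre driven by Cx3cr1 is not limited to microglia: border-associated macrophages also express Cx3cr1, so their ribosomes can carry the tag. Circulating monocytes express it too, but they turn over quickly, and the study left an interval between tamoxifen and collection over which tagged blood cells are lost. The paper states that a half-brain was used for each preparation other than Dounce. For Dounce its methods describe half-brains, while its results state that RNA isolation took an entire brain.

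In the sort comparison, Tissue was homogenized half-brain, Cell was an unsorted single-cell suspension made with papain and mechanical force, autoMACS was selection on CD11b magnetic beads, Tyto was cartridge-based sorting, FACSAria was cytometer-based sorting, and autoMACS to Tyto was bead selection followed by the cartridge sort. The fluorescence sorts gated on CD11b, CD45 and eGFP. In the cell preparation comparison, Tissue was set against a suspension made by Dounce homogenization at 4 °C and against papain suspensions made without, Cell (-) Inhibitors, or with, Cell (+) Inhibitors, blockers of transcription and translation. Tissue and Cell of the sort comparison came from the same 4 mice (946, 947, 948 and 949). The Tissue libraries of the preparation comparison were labelled with the same mouse numbers, and its other groups came from other mice. Whether both sets of Tissue libraries came from the same RNA is not stated. The sort comparison held 14 mice and the preparation comparison 12, with 4 in both.

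Border-associated macrophages and microglia both express Cx3cr1, CD11b and CD45, and the former are set apart by receptors for the uptake of glycoproteins, haemoglobin and hyaluronan and by major histocompatibility complex (MHC) class II in some of their subsets. Mrc1 (mannose receptor), Cd163 (receptor for haptoglobin-bound haemoglobin), Lyve1 (hyaluronan receptor) and Stab1 (stabilin, a scavenger receptor) are surface receptors. Pf4 encodes a chemokine that platelets also carry, F13a1 the catalytic subunit of a coagulation transglutaminase also found in monocytes and megakaryocytes, Ms4a7 a membrane protein of the MS4A family and Cbr2 a carbonyl reductase. Lyve1 and Stab1 are also made by lymphatic or sinusoidal endothelium.

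The 8 genes lie on 8 chromosomes of the mouse build mm10: Mrc1 at chr2:14229414-14332023 (plus strand), Pf4 at chr5:90772435-90773383 (plus), Cd163 at chr6:124304651-124330527 (plus), Lyve1 at chr7:110850607-110862953 (minus), Cbr2 at chr11:120729485-120732021 (minus), F13a1 at chr13:36867178-37050244 (minus), Stab1 at chr14:31139017-31168641 (minus) and Ms4a7 at chr19:11321039-11336146 (minus). RefSeq promoter windows of GRCm38.p6, the assembly behind mm10, running from 250 bases before to 50 bases after the transcription start, were at hand for 7 of the 8 genes (9 windows). Shown are 4 windows, those of the 3 genes whose libraries deviated together most closely (F13a1, Mrc1 and Cbr2, see the deviations given later) and that of Stab1, which followed them least. Capitals mark the letters AGGAAG or CTTCCT, the core that PU.1 and other ETS factors of myeloid cells bind, and TGCTGA or TCAGCA, a half-site of MAF factors.
Mrc1, chr2:14229164-14229463, plus strand: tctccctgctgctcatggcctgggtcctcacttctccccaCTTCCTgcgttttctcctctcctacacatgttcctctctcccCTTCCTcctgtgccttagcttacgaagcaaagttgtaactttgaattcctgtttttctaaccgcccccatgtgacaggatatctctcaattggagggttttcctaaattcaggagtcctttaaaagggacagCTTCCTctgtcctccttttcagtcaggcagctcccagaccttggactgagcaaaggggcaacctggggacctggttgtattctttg
F13a1, chr13:37050195-37050494, minus strand: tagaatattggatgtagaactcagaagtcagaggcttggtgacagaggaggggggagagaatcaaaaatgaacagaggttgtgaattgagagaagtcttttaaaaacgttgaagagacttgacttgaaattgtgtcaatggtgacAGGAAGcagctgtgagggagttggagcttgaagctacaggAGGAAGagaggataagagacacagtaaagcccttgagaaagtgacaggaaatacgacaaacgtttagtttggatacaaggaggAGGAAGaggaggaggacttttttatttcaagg
Cbr2, chr11:120731972-120732271, minus strand: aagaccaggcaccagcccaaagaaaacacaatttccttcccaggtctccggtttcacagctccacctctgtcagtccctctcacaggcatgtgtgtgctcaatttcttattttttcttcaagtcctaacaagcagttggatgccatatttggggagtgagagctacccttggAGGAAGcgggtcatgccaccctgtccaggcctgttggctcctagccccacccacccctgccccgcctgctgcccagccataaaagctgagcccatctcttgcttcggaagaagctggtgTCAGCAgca
Stab1, chr14:31168592-31168891, minus strand: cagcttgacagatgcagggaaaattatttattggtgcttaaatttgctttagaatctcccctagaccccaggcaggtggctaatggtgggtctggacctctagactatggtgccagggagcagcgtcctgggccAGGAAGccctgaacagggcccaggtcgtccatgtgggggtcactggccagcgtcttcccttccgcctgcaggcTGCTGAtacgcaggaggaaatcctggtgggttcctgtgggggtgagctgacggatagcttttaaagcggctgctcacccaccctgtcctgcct
The ETS letters occurred 3 times in the Mrc1 window and 3 times in the F13a1 window shown, and once each in those of Cbr2 and Stab1. Both Cbr2 and Stab1 windows also held 1 MAF half-site. On either strand the ETS letters were present in 6 of the 9 windows (5 of the 7 genes), against 35.4% of 32851 promoter windows of this length. The MAF letters were present in 2 of the 9 windows (2 of the 7 genes), against 19.5%. The Cd163 and Ms4a7 windows held neither. These are matches of letters and were not tested as binding sites.

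Levels are given as CPM (a gene's counts relative to the total counts of its library), scaled between libraries by the trimmed mean of M-values (TMM). Library totals ran from 7129464 to 20168116 counts in the sort comparison and from 2471448 to 14650287 in the preparation comparison, where the Dounce-TRAP libraries were the shallowest (2471448 to 4724538). A gene was called higher or lower at a false discovery rate (FDR) under 0.1 over all genes tested and a change of more than 2-fold, with edgeR's quasi-likelihood test, and log2 fold changes are given ± SE. The share of all genes called the same way is printed beside each count of members. The Cell libraries of 1 mouse stood apart before any comparison: mouse 946 had the highest level of all 8 genes among the 4 mice of Cell-Input and again among those of Cell-TRAP, so the main results that rest on the Cell groups are also given without it.

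In Input RNA, the 8 genes together were lowest in Tissue, higher in the cell suspension and highest after sorting. Their summed level ran from 21.8 to 33.9 CPM in Tissue-Input, from 427 to 645 CPM in Cell-Input, and from 1132 to 2494 CPM in autoMACS-Input, 1694 to 2156 CPM in FACSAria-Input, 1812 to 2728 CPM in Tyto-Input and 2188 to 3412 CPM in autoMACS to Tyto-Input. Tissue, Cell and the sorts did not overlap with one another, whereas the ranges of the 4 sorts did. Stab1 and Mrc1 made up most of each sum, and in FACSAria-Input Stab1 alone averaged 1307 of 1930 CPM. How much of the Stab1 RNA came from border-associated macrophages or from other cells, microglia included, was not tested. Divided by exon length, the mean level in Cell-Input was 36.7 CPM per kb for Stab1, 16.03 for Mrc1, 14.0 for Cbr2, 12.6 for Pf4, 9.39 for F13a1, 8.14 for Cd163, 7.74 for Lyve1 and 2.17 for Ms4a7. Stab1 was first on this per-length scale in the Input RNA of all 6 groups of the sort comparison and Ms4a7 was last in all 6.

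**Figure D1:**
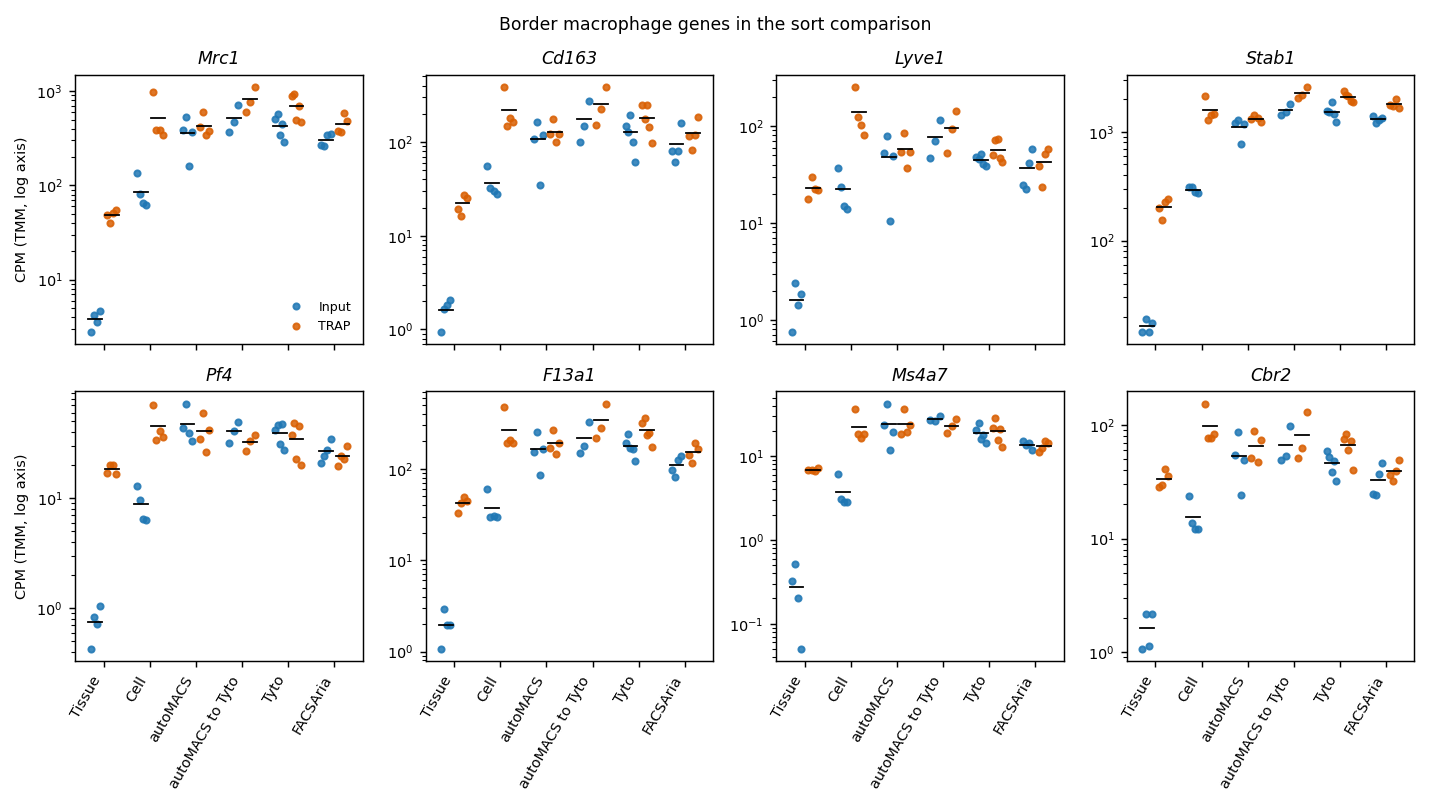
Level of each gene in the 24 Input (blue) and 24 TRAP (orange) libraries of the sort comparison, in CPM on a log axis. Each point is 1 library (1 mouse), the line is the group mean, and the Ms4a7 library at 0 is drawn at the bottom of its panel. Input points climb from Tissue to Cell to the sorts, while TRAP points climb from Tissue to Cell and then mostly overlap with Cell. In TRAP, Lyve1 was called lower after autoMACS, Tyto and FACSAria, and without the Cell-TRAP library of mouse 946 after FACSAria alone.

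Breaking the tissue into a cell suspension was followed by a rise of all 8 genes in Input RNA. They were called higher in Cell-Input than in Tissue-Input, against 28.5% of 15750 genes tested, with a median of 15.8-fold (log2 3.98) against a median log2 fold change of 0.17 over all genes. The uptake receptors come first. Mrc1 stood at 2.78, 4.23, 3.57 and 4.62 CPM in Tissue-Input of mice 946, 947, 948 and 949 and at 135, 81.7, 65.7 and 61.8 CPM in Cell-Input of the same mice, a log2 fold change of 4.49 ± 0.35 (FDR 1.02e-10). Every Cell library lay far above every Tissue library, and the library of mouse 946, lowest in Tissue, was highest in Cell. Cd163 stood at 0.938, 1.65, 1.80 and 2.06 CPM in Tissue-Input and at 55.9, 31.99, 30.1 and 28.1 CPM in Cell-Input (4.48 ± 0.51). Lyve1 stood at 0.748, 2.43, 1.44 and 1.83 CPM in Tissue-Input and at 37.3, 23.5, 14.9 and 13.9 CPM in Cell-Input (3.78 ± 0.51). Stab1 stood at 14.4, 19.2, 14.6 and 17.4 CPM in Tissue-Input and at 313, 308, 281 and 272 CPM in Cell-Input (4.16 ± 0.16). For none of these receptors did Cell and Tissue overlap, and Stab1 varied least between mice.

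The secreted products, the membrane protein and the enzyme rose as well. Pf4 stood at 0.428, 0.826, 0.717 and 1.06 CPM in Tissue-Input and at 12.8, 9.64, 6.49 and 6.40 CPM in Cell-Input (3.51 ± 0.34). F13a1 stood at 1.07, 2.89, 1.95 and 1.97 CPM and at 60.6, 29.7, 30.2 and 29.8 CPM (4.24 ± 0.39). Mouse 946 again stood far above the other Cell-Input libraries, and the groups did not overlap. Ms4a7 rested on 6, 10, 4 and 0 counts in Tissue-Input (0.321, 0.516, 0.205 and 0 CPM) and reached 6.10, 3.09, 2.87 and 2.82 CPM in Cell-Input (3.81 ± 0.49). Cbr2 stood at 1.07, 2.19, 1.15 and 2.17 CPM and at 23.95, 13.6, 12.2 and 12.2 CPM (3.22 ± 0.39), the smallest rise of the 8. Without mouse 946 in Cell-Input all 8 were still called higher, with a median log2 fold change of 3.69.

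Other cells moved too at this step. All 10 microglial identity genes were called higher, with a median log2 fold change of 4.15, as were 17 of 19 other border macrophage genes (3.24) and 4 of 4 MHC class II genes (3.84). Lists for cells outside the macrophage lineage rose as well: 7 of 7 brain endothelial genes (4.68), 7 of 7 choroid plexus epithelial genes (2.93), 6 of 6 mural cell genes, 6 of 7 blood monocyte genes, 6 of 7 neutrophil genes, 5 of 6 lymphocyte genes, 5 of 7 dendritic cell genes (1 lower), 4 of 7 platelet genes (1 lower), 3 of 7 meningeal fibroblast genes and 3 of 6 lymphatic and sinusoidal endothelial genes (1 lower). The summed monocyte list went from 19.2 to 23.1 CPM in Tissue-Input to 300.1 to 404 CPM in Cell-Input, and the brain endothelial list from 57.6 to 74.7 CPM to 1202 to 2253 CPM. The part of these cells in the rise of the 8 genes was not tested. In bulk RNA a change in the number of cells of a type and a change in the RNA per cell cannot be told apart.

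After sorting, the 8 genes rose further in Input RNA. All 8 were called higher than in Cell-Input after autoMACS (18.2% of all genes were called higher), after autoMACS to Tyto (16.9%) and after Tyto (17.2%), and 7 of 8 after FACSAria (17.1%). The median fold was 2.99 with FACSAria, 3.97 with autoMACS, 4.55 with Tyto and 5.06 with autoMACS to Tyto, and the 4 sorts share the same Cell-Input libraries. Mrc1 stood at 392, 528, 162 and 367 CPM in autoMACS-Input of mice 66, 67, 72 and 73 (log2 fold change against Cell-Input 2.07 ± 0.30). It stood at 372, 466 and 708 CPM in autoMACS to Tyto-Input of mice 66, 67 and 73 (2.58 ± 0.32). It stood at 508, 575, 339, 444 and 290.0 CPM in Tyto-Input of mice 69, 822, 823, 945 and 991 (2.32 ± 0.30) and at 268, 260, 341 and 356 CPM in FACSAria-Input of mice 69, 945, 991 and 992 (1.83 ± 0.30). Every sorted library lay above every Cell-Input library, with the autoMACS library of mouse 72 nearest to them.

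Lyve1 gained least. It stood at 53.04, 78.1, 10.5 and 49.4 CPM in autoMACS-Input (1.11 ± 0.42), at 46.9, 70.8 and 115 CPM in autoMACS to Tyto-Input (1.79 ± 0.44), and at 48.5, 45.96, 51.8, 40.7 and 38.8 CPM in Tyto-Input (1.01 ± 0.40). In FACSAria-Input it stood at 24.8, 22.2, 41.4 and 58.3 CPM, a log2 fold change of 0.71 ± 0.42 that was not called (FDR 0.13). The autoMACS library of mouse 72 lay below all 4 Cell-Input libraries for Lyve1, and 2 of the FACSAria libraries lay below the Cell-Input library of mouse 946. The autoMACS and Tyto calls for Lyve1 lay at the 2-fold threshold and were lost with DESeq2's size factors (0.89 and 0.81), with DESeq2's test (0.87 and 0.80) and with limma on the authors' values (0.59 and 0.80). Without mouse 946 in Cell-Input all 8 genes were called after each of the 4 sorts, Lyve1 in FACSAria-Input included (1.07).

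Among the other members, Stab1 rose in the narrowest band, by a log2 value of 1.91 ± 0.14 after autoMACS, 2.43 ± 0.15 after autoMACS to Tyto, 2.38 ± 0.14 after Tyto and 2.15 ± 0.15 after FACSAria. Its levels were 765 to 1269 CPM, 1413 to 1814 CPM, 1228 to 1888 CPM and 1209 to 1386 CPM in the same order, all above the Cell-Input libraries. Ms4a7 gained most after autoMACS to Tyto (2.90 ± 0.36), with 26.8, 26.3 and 30.0 CPM against 2.82 to 6.10 CPM in Cell-Input. Pf4 rose by 2.42 ± 0.27 after autoMACS, from 6.40 to 12.8 CPM in Cell-Input to 33.1 to 72.5 CPM. The remaining log2 fold changes were 1.55, 2.25, 1.79 and 1.39 for Cd163, 2.13, 2.53, 2.24 and 1.56 for F13a1 and 1.81, 2.11, 1.58 and 1.09 for Cbr2, given for bead selection first, then beads with Tyto, Tyto alone and FACSAria. For Cbr2 the FACSAria libraries stood at 24.8, 24.4, 36.8 and 45.96 CPM, just above the 23.95 CPM of the Cell-Input library of mouse 946. That call was lost with DESeq2's size factors (0.89), with DESeq2's test (0.89) and with limma (0.77).

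In the test across the 4 sorts no member was called, against 7.42% of all genes, although 5 of the 8 had an unadjusted p under 0.05. DESeq2 and limma called none either. Some sorts share mice (66, 67 and 73 for autoMACS and autoMACS to Tyto, 69, 945 and 991 for Tyto and FACSAria), and this test and that in TRAP RNA treat their libraries as independent. The largest difference between the fitted values of any 2 sorts ran from 0.52 for Stab1 to 1.08 for Lyve1 on the log2 scale. Without the autoMACS library of mouse 72, Ms4a7 (1.06) and Cbr2 (1.02) were called. That library also had a lower summed level of the 10 microglial identity genes, 17590 CPM against 27750 to 30100 CPM in the other autoMACS-Input libraries, and a lower level of MHC class II genes, 762 CPM against 1244 to 2372 CPM. Its part in the result was not tested beyond leaving it out.

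Other lists differed in direction after sorting. The 10 microglial identity genes were called higher after every sort (medians 2.50 after autoMACS, 2.78 after autoMACS to Tyto, 2.66 after Tyto and 2.79 after FACSAria), as were all 4 MHC class II genes. Of 19 other border macrophage genes, 16 were called higher after autoMACS, 16 after autoMACS to Tyto, 16 after Tyto and 13 after FACSAria. The summed monocyte list lay below the 300.1 to 404 CPM of Cell-Input, at 63.97 to 124 CPM in autoMACS-Input, 36.03 to 72.6 CPM in autoMACS to Tyto-Input, 30.1 to 45.2 CPM in Tyto-Input and 31.1 to 65.7 CPM in FACSAria-Input, although 5 of its 7 genes were called higher after autoMACS and 2 lower. The platelet list, which matters for Pf4, summed to 41.7 to 49.9 CPM in Cell-Input and 147 to 233 CPM over the sorted Input libraries, with 4 of 7 genes called higher and 3 lower after autoMACS. The part of platelets in the Pf4 values was not tested. The dendritic cell list summed to 22.2 to 24.5 CPM in Cell-Input and 56.4 to 97.7 CPM over the sorted libraries, and the lymphocyte list to 7.33 to 10.4 CPM and 12.6 to 27.3 CPM. The lymphatic and sinusoidal endothelial list, which bears on Lyve1 and Stab1, went the other way, from 125 to 147 CPM to 5.06 to 22.00 CPM, and the part of these cells was not tested. The summed neutrophil list lay at 81.5 to 275 CPM in autoMACS-Input and at 3.79 to 54.7 CPM in FACSAria-Input, against 23.1 to 38.02 CPM in Cell-Input. All 7 brain endothelial genes were called lower after autoMACS, autoMACS to Tyto and Tyto and 6 of 7 after FACSAria, and all 7 choroid plexus epithelial genes after every sort, so the 8 genes rose while the endothelial and epithelial lists fell.

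**Figure D2:**
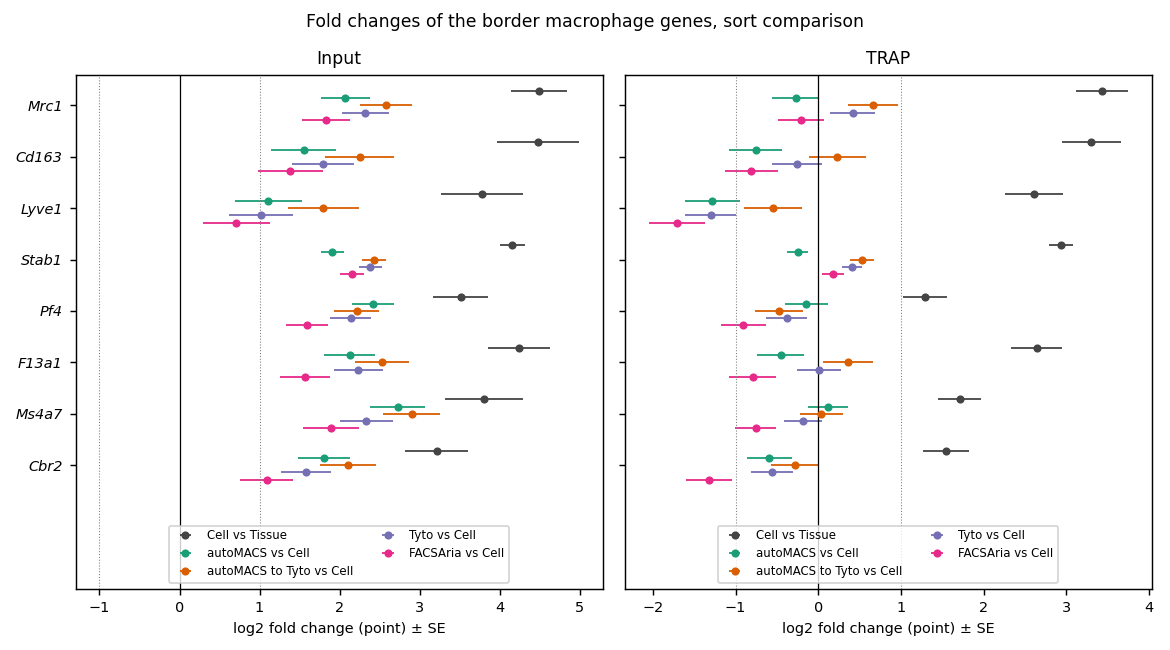
Log2 fold changes (point) ± SE of the 8 genes in the sort comparison, Cell against Tissue and each sort against Cell, for Input and TRAP RNA. Input points lie above 0 throughout, whereas TRAP points of the sorts run from -1.71 (Lyve1 after FACSAria) to 0.66 (Mrc1 after autoMACS to Tyto).

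In TRAP RNA the same step from Tissue to Cell raised all 8 genes, but with all mice included no member was called higher after sorting. All 8 were called higher in Cell-TRAP than in Tissue-TRAP, against 25.1% of 14953 genes, with a median of 6.16-fold. Mrc1 stood at 48.4, 39.9, 51.1 and 54.3 CPM in Tissue-TRAP of mice 946, 947, 948 and 949 and at 978, 383, 388 and 341 CPM in Cell-TRAP (log2 fold change 3.43 ± 0.31). Lyve1 stood at 17.6, 30.0, 22.6 and 21.7 CPM and at 254, 124, 103 and 80.2 CPM (2.61 ± 0.35). The groups did not overlap for either gene, and mouse 946 stood far above the next Cell-TRAP library for both. Pf4 stood at 16.9, 20.04, 20.3 and 16.6 CPM and at 70.3, 33.5, 40.7 and 36.4 CPM, the smallest rise (1.29 ± 0.27). Cbr2 stood at 28.4, 29.5, 40.9 and 35.9 CPM and at 155, 76.97, 76.8 and 84.2 CPM (1.54 ± 0.28). Ms4a7 stood at 6.76, 6.82, 6.58 and 7.20 CPM and at 36.7, 18.3, 16.3 and 18.5 CPM (1.71 ± 0.26). For these 3 genes the groups did not overlap either, and the Tissue-TRAP libraries for Ms4a7 were nearly alike.

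The rises of the other members in TRAP RNA were 3.30 ± 0.36 for Cd163, 2.94 ± 0.14 for Stab1 and 2.64 ± 0.30 for F13a1. Cd163 ran from 16.2 to 27.5 CPM in Tissue-TRAP and from 147 to 384 CPM in Cell-TRAP, Stab1 from 155 to 241 CPM and from 1287 to 2128 CPM, and F13a1 from 32.9 to 49.8 CPM and from 189 to 471 CPM. Without mouse 946 in Cell-TRAP, 7 of 8 were called and Pf4 (0.97) was not. The Pf4 call was also lost with DESeq2's size factors (0.97), DESeq2's test (0.97) and limma (0.80). In the same libraries 10 of 10 microglial identity genes, 16 of 20 other border macrophage genes, 4 of 4 MHC class II genes and 7 of 7 brain endothelial genes were called higher, and the summed monocyte list went from 19.1 to 26.8 CPM to 116 to 165 CPM. The neutrophil list stayed at 1.41 to 2.85 CPM in Tissue-TRAP, with S100a8, Retnlg and Camp at 0, and at 2.23 to 6.92 CPM in Cell-TRAP, with Retnlg and Camp at 0. The part of other cells in the rise was not tested.

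Against Cell-TRAP, Lyve1 was the member called lower most often, though the members called lower were near or below the share of all genes. It was the 1 member called lower after autoMACS (-1.28 ± 0.33, where 23.0% of genes were called lower) and the 1 called lower after Tyto (-1.30 ± 0.31, 23.2%), while after FACSAria it (-1.71 ± 0.34) and Cbr2 (-1.32 ± 0.28) were called lower (21.9%). After autoMACS to Tyto no member was called (21.7% of genes were called lower), with 2 of 8 at an unadjusted p under 0.05 and none called by DESeq2 or limma. Lyve1 stood at 54.3, 85.4, 37.2 and 53.96 CPM in autoMACS-TRAP, at 52.9, 93.7 and 142 CPM in autoMACS to Tyto-TRAP and at 50.0, 72.2, 73.4, 46.5 and 42.4 CPM in Tyto-TRAP. In FACSAria-TRAP it stood at 38.4, 23.5, 51.9 and 57.7 CPM. All FACSAria-TRAP and Tyto-TRAP libraries lay below the 4 Cell-TRAP libraries (80.2 to 254 CPM), and the FACSAria-TRAP library of mouse 945 lay within the Tissue-TRAP range. Without mouse 946 in Cell-TRAP, Lyve1 was no longer called after autoMACS (-0.82) or Tyto (-0.84) and was still called after FACSAria (-1.24), Cbr2 after FACSAria was not (-0.99), and Mrc1 was called higher after autoMACS to Tyto (1.18).

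Cbr2 stood at 36.2, 32.5, 39.7 and 49.3 CPM in FACSAria-TRAP, below the 76.8 to 155 CPM of Cell-TRAP. It stood at 46.9 to 88.4 CPM in autoMACS-TRAP, 51.1 to 130 CPM in autoMACS to Tyto-TRAP and 40.03 to 84.1 CPM in Tyto-TRAP, groups that overlapped with Cell-TRAP. Stab1 stood at 1663 to 1996 CPM in FACSAria-TRAP against 1287 to 2128 CPM in Cell-TRAP (0.18 ± 0.13). The other members changed by less than 2-fold in each sort, from -0.90 for Pf4 after FACSAria to 0.66 for Mrc1 after autoMACS to Tyto. Without mouse 946 in Cell-TRAP, Stab1 was higher by less than 2-fold after autoMACS to Tyto (0.73, FDR 4.2e-05) and Tyto (0.60, FDR 1.04e-04). It was also higher after FACSAria (0.38, FDR 0.0093) but not after autoMACS (-0.06). Between the 4 sorts, Cd163, Lyve1, F13a1 and Cbr2 were called (4 of 8, against 4.17% of genes), with the largest differences between any 2 sorts at 1.04, 1.17, 1.15 and 1.04 on the log2 scale. With limma 1 of the 8 was called. Leaving out the autoMACS to Tyto-TRAP library of mouse 73 left none of the 4 called, and leaving out the FACSAria-TRAP library of mouse 69 or 945 left 1. That library of mouse 73 was the highest of its group for all 8 genes, with 1113 CPM of Mrc1 against 599 and 765 CPM, and held 34020 CPM of microglial identity genes against 31640 and 31760 CPM.

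TRAP RNA was set against Input RNA of the same preparation to ask how far the pull-down enriches these genes. In Tissue all 8 were called higher in TRAP (9.23% of 15825 genes were), by 3.85 (Stab1) to 4.89 (Ms4a7) on the log2 scale, a median of 19.5-fold. In Cell all 8 were called higher (16.8% of genes), by 2.64 (Pf4) to 3.10 (F13a1), a median of 7.37-fold, and all 8 were called without the Input or the TRAP library of mouse 946 (median log2 3.20 and 2.50). After sorting no member was called between TRAP and Input: none after autoMACS (17.5% of genes called either way), autoMACS to Tyto (5.40%), Tyto (17.0%) or FACSAria (10.3%), with log2 fold changes from -0.22 to 0.79. At an unadjusted p under 0.05 there were 1, 3, 4 and 2 members in that order, and DESeq2 and limma called none. Input and TRAP came from the same mice, and with the mouse as a block these counts were 4, 7, 6 and 6, still with no change over 2-fold. In that blocked fit Mrc1 was higher in TRAP by 0.78 ± 0.04 after Tyto (FDR 9.8e-11), and Stab1 by 0.54 ± 0.04 after FACSAria (FDR 5.9e-10). Without 1 autoMACS to Tyto-Input library, that of mouse 73, Mrc1 (1.11) and F13a1 (1.20) were called after autoMACS to Tyto, and without the TRAP library of mouse 66, F13a1 (1.01).

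The enrichment by TRAP was smaller in Cell than in Tissue for 5 of 8 members (29.5% of genes were called the same way): Pf4 by -2.14 ± 0.48, Ms4a7 by -2.01 ± 0.60, Cbr2 by -1.59 ± 0.51, F13a1 by -1.52 ± 0.51 and Stab1 by -1.14 ± 0.20. The differences for Mrc1 (-0.98 ± 0.46), Cd163 (-1.10 ± 0.64) and Lyve1 (-1.09 ± 0.64) were not called. When the mouse was added as a block, since Tissue and Cell came from the same animals, all 8 were called, with -1.06 for Mrc1, -1.19 for Cd163 and -1.18 for Lyve1. All 8 were also called with DESeq2's size factors, DESeq2's test and limma. Without the Cell-TRAP library of mouse 946 all 8 were called (median -1.72), whereas without its Cell-Input library the same 5 were (median -1.17), with -0.69 for Mrc1, -0.83 for Cd163 and -0.74 for Lyve1. In Tissue the pull-down raised 10 of 10 microglial identity genes (median 4.38) and 17 of 20 other border macrophage genes (3.90), and 2 of 7 monocyte genes. In Cell it raised 10 of 10 (2.78) and 17 of 20 (2.38), while 3 of 7 monocyte and 6 of 7 neutrophil genes were called lower. On the per-length scale Cbr2 (30.3 CPM per kb), Pf4 (26.4) and Stab1 (25.7) led in Tissue-TRAP, whereas Stab1 (197) and Mrc1 (97.2) led in Cell-TRAP.

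Because microglial genes moved in the same direction, the counts were also scaled to the geometric mean of the 10 microglial identity genes in each library in place of TMM, so that a value of 0 means that a gene kept pace with them. On this scale most genes of the brain fall with purification, and the median of all genes was -4.06 for Cell-Input against Tissue-Input. The summed level of the 10 genes had a median of 862 CPM in Tissue-Input and 6269 CPM in Cell-Input. That of 11 genes shared by macrophages and microglia went from 270 to 5215 CPM, a larger rise. The part of other brain cells in the RNA of the 10 genes was not tested. With all mice, none of the 8 members was called between Cell-Input and Tissue-Input, where 93.1% of all genes were called lower. Their median was -0.14, and the values ran from -0.88 (Cbr2) to 0.37 (Mrc1). Of the 8, 1 had an unadjusted p under 0.05. With the mouse as a block Cbr2 was called (-1.004), and without mouse 946 in Cell-Input Pf4 (-1.01) and Cbr2 (-1.35) were. Without that mouse the median of the members was -0.57, with values from -1.35 to -0.11. In the preparation comparison the median for Cell (-) Inhibitors against Tissue in Input was -0.77.

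Relative to microglial genes, Lyve1 and Cbr2 lay lower after sorting with all mice included, a share of the members no larger than that of all genes. In the mean of the 4 sorts against Cell-Input, Lyve1 (-1.52 ± 0.31) and Cbr2 (-1.005 ± 0.26) were called lower (89.8% of genes were), and in the mean of the 4 sorts against Cell-TRAP the same 2 genes were, Lyve1 at -1.60 ± 0.26 and Cbr2 at -1.06 ± 0.22 (26.5%). Stab1 stayed nearest to 0 of the TRAP values, at -0.15 ± 0.11. Cbr2 lay at the 2-fold threshold and was lost with 11 genes shared by macrophages and microglia as the scale in TRAP (-0.98). Without mouse 946 neither gene was called in Input (Lyve1 -0.96, Cbr2 -0.53), and in TRAP Lyve1 was (-1.07) and Cbr2 was not (-0.69).

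Between Cell-TRAP and Tissue-TRAP, Pf4 (-1.46 ± 0.29), Ms4a7 (-1.03 ± 0.28) and Cbr2 (-1.20 ± 0.29) were called lower on the microglial scale (87.1% of genes were). These calls depended on the scale: with the 11 shared genes none was called lower and Mrc1 (1.33) and Cd163 (1.20) were called higher. Without mouse 946 in Cell-TRAP the same 3 were called lower, at -1.82, -1.44 and -1.57, and the median of the members went from -0.11 to -0.63. Between TRAP and Input no member was called in Tissue (96.5% of genes called either way) or in Cell (91.5%). Of the 8, 2 had an unadjusted p under 0.05 in Tissue and none in Cell. In Cell the median of the members was 0.20, and it was 0.70 without the Cell-Input library of mouse 946 and -0.25 without its Cell-TRAP library, so its sign rests on that mouse. In Tissue with the mouse as a block Ms4a7 was called higher (1.06).

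Expressed as a percentage of the geometric mean of the microglial genes, the geometric mean of the members was 8.64 ± 0.75% (SD, n = 4) in Tissue-Input and 8.22 ± 4.45% (n = 4) in Cell-Input. The Cell-Input figure rests on mouse 946, at 14.8%, against 5.54 to 6.87% in the other 3. It was 5.67 ± 1.67% (n = 4) in autoMACS-Input, 6.30 ± 2.23% (n = 3) in autoMACS to Tyto-Input, 5.19 ± 1.16% (n = 5) in Tyto-Input and 3.47 ± 0.89% (n = 4) in FACSAria-Input. In TRAP RNA it was 11.5 ± 0.57% in Tissue, 9.29 ± 4.85% in Cell (16.6% in mouse 946 and 6.52 to 7.32% in the others), 5.34 ± 1.40% in autoMACS, 7.44 ± 2.26% in autoMACS to Tyto, 5.96 ± 1.41% in Tyto and 4.09 ± 0.98% in FACSAria. FACSAria had the lowest mean in both fractions, and its range of 3.12 to 5.32% in TRAP lay below all Cell-TRAP and Tissue-TRAP libraries while overlapping with autoMACS and Tyto.

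**Figure D3:**
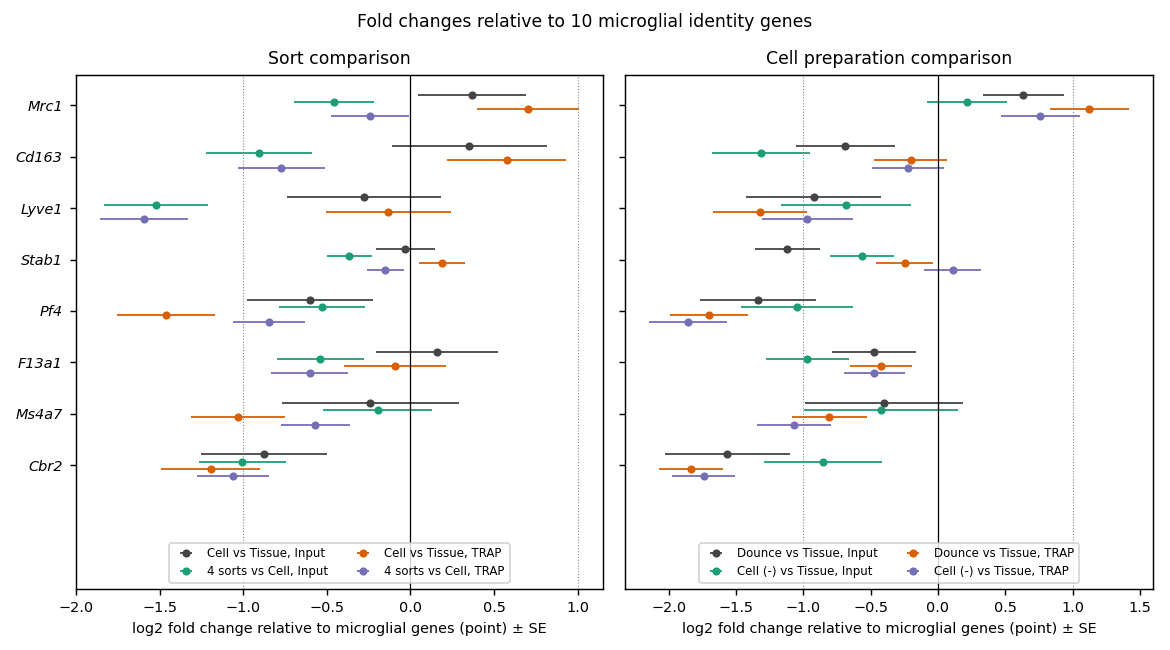
Log2 fold changes (point) ± SE on the scale of the 10 microglial identity genes, for the sort comparison (left) and the cell preparation comparison (right); dotted lines mark 2-fold. Lyve1 lies lowest in the sorts (-1.52 and -1.60), and Mrc1 is the highest member wherever a suspension is set against Tissue.

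The cell preparation comparison asked whether cold mechanical dissociation or inhibitors change what papain dissociation does. The paper reports lower RNA integrity in Dounce-Input than in Tissue-Input or the papain suspensions. It also reports reads skewed more toward the 3' end of genes in Tissue and Dounce than in the papain suspensions, in both fractions. Dounce suspensions were also cleared on a Percoll gradient. The Dounce libraries came from mice of their own and are numbered apart from the others in the labels. Whether they were sequenced together with the others is not stated. The part of these differences in the levels below was not tested. In Input RNA all 8 genes were called higher than in Tissue after Dounce (28.7% of 15753 genes were), in Cell (-) Inhibitors (25.6%) and in Cell (+) Inhibitors (25.5%), and these 3 comparisons share the Tissue libraries. The median was 4.30-fold after Dounce, 11.9-fold without and 12.2-fold with inhibitors. Mrc1 stood at 5.83, 3.73, 2.74 and 3.14 CPM in Tissue of mice 946, 947, 948 and 949 and at 46.4, 61.5, 23.96 and 46.2 CPM in Dounce of mice 179, 180, 181 and 182 (3.53 ± 0.37). In mice 156, 157, 1361 and 1362 it stood at 90.1, 75.2, 57.2 and 157 CPM without inhibitors (4.61 ± 0.37) and at 90.3, 104, 68.4 and 143 CPM with them (4.70 ± 0.37). The Dounce libraries lay between Tissue and the papain suspensions except that of mouse 180, which lay above 1 of the libraries without inhibitors.

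Lyve1 had the lowest level per kilobase of the receptors in these Input groups. It stood at 0.402, 1.08, 0.947 and 1.12 CPM in Tissue and 4.96, 5.33, 0.767 and 2.56 CPM in Dounce (2.02 ± 0.50). In the papain suspensions it stood at 10.3, 11.3, 8.28 and 16.5 CPM without inhibitors (3.70 ± 0.47) and 9.59, 17.6, 7.05 and 15.1 CPM with them (3.79 ± 0.47). The Dounce library of mouse 181, with 4 counts, lay within the Tissue range, and the suspensions lay above all Dounce libraries. Cbr2 stood at 1.46, 0.662, 1.25 and 0.758 CPM in Tissue and at 4.75, 2.05, 2.15 and 1.62 CPM in Dounce (1.33 ± 0.38), where mouse 179 was highest. Without that library the Cbr2 call was lost (0.85). The other log2 fold changes after Dounce, without and with inhibitors were 2.19, 3.10 and 3.21 for Cd163, 1.79, 3.83 and 4.04 for Stab1, 1.59, 3.31 and 3.30 for Pf4, 2.43, 3.39 and 3.36 for F13a1, and 2.51, 3.86 and 4.03 for Ms4a7.

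Dounce and papain suspensions held different levels of neutrophil and lymphocyte genes. The summed neutrophil list was 295 to 1834 CPM in Dounce-Input, 22.9 to 114 CPM and 22.5 to 132 CPM in the papain suspensions, and 2.21 to 7.03 CPM in Tissue-Input with Retnlg and Camp at 0. The lymphocyte list was 58.6 to 86.5 CPM in Dounce-Input against 1.14 to 4.04 CPM in Tissue-Input and against 21.04 to 32.01 CPM in the papain suspensions. The monocyte list was higher than in Tissue-Input (20.6 to 25.4 CPM) but overlapped between Dounce (178 to 335 CPM) and the papain suspensions (185 to 374 and 191 to 332 CPM). All 7 neutrophil genes (median 8.63), 9 of 9 lymphocyte genes (5.42) and 6 of 7 monocyte genes (4.48) were called higher after Dounce, as were 9 of 10 microglial identity genes (2.81), 14 of 19 other border macrophage genes (1.53) and 4 of 4 MHC class II genes (3.34), while 4 of 7 brain endothelial genes were called lower. The part of blood cells in the rise of the 8 genes after Dounce was not tested.

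**Figure D4:**
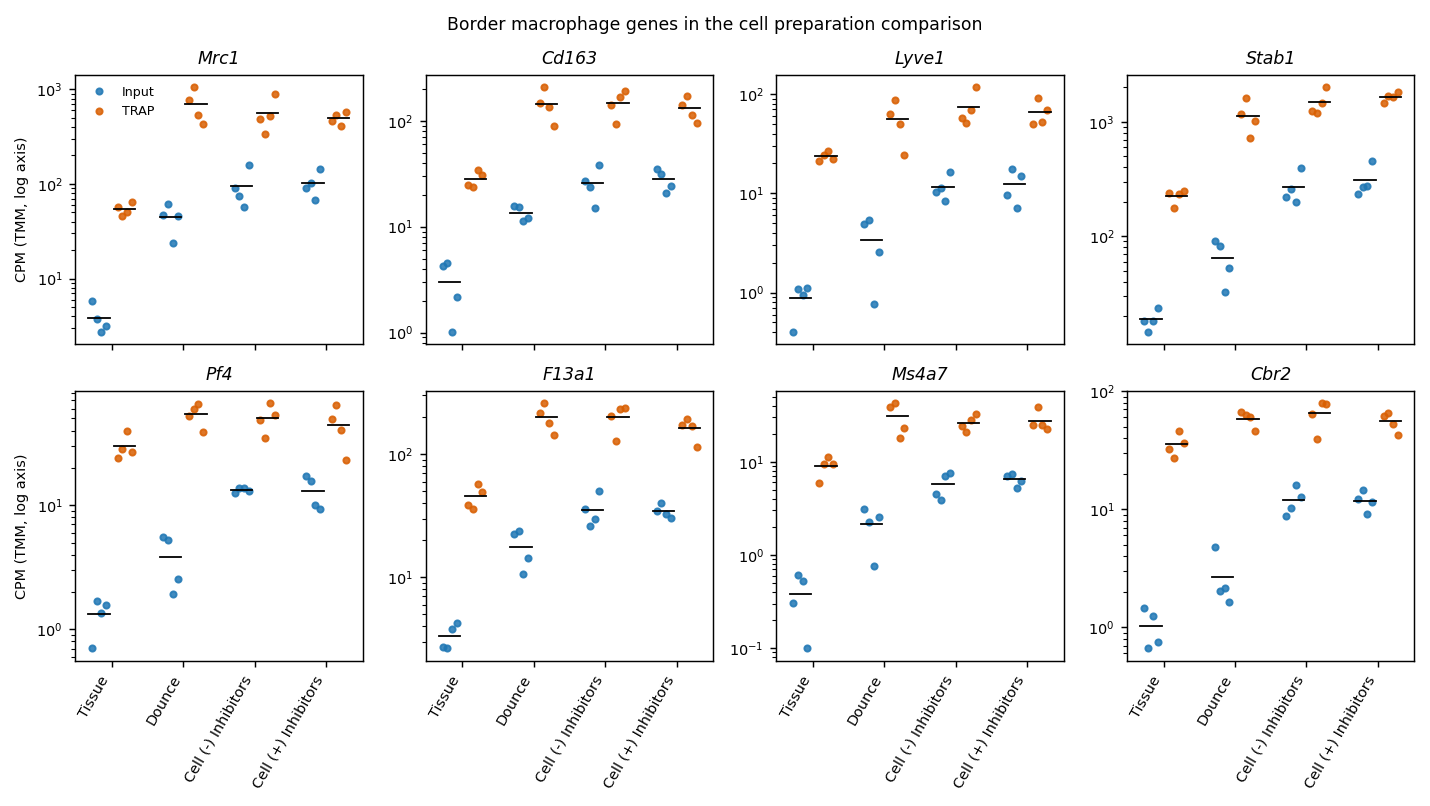
Level of each gene in the 16 Input (blue) and 16 TRAP (orange) libraries of the cell preparation comparison, in CPM on a log axis; each point is 1 library (1 mouse) and the line is the group mean. Input group means in Dounce lie between Tissue and the papain suspensions, TRAP levels in the 3 suspensions overlap, and the libraries with and without inhibitors overlap in every panel.

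In TRAP RNA the 3 suspensions came closer together. Compared with Tissue-TRAP, 6 of 8 genes were called higher after Dounce (23.2% of 14723 genes were), in Cell (-) Inhibitors (22.3%) and in Cell (+) Inhibitors (21.6%), and in each case the same 6, without Pf4 and Cbr2. Mrc1 stood at 56.6, 45.5, 50.8 and 63.9 CPM in Tissue-TRAP, at 774, 1065, 541 and 433 CPM in Dounce-TRAP (3.70 ± 0.29), at 488, 334, 525 and 883 CPM without inhibitors (3.36 ± 0.28) and at 459, 537, 414 and 570 CPM with them (3.19 ± 0.28). The suspensions overlapped with one another and lay far above Tissue. Pf4 stood at 24.3, 28.2, 39.96 and 26.7 CPM in Tissue-TRAP, at 52.4, 59.5, 65.4 and 38.7 CPM in Dounce-TRAP (0.86 ± 0.26), at 48.4, 35.1, 66.2 and 53.2 CPM without inhibitors (0.77 ± 0.26) and at 49.6, 63.9, 40.4 and 23.2 CPM with them (0.57 ± 0.26). Its ranges overlapped with Tissue in all 3 suspensions, and the change was under 2-fold. The log2 changes of Cbr2 were 0.73 ± 0.21, 0.87 ± 0.21 and 0.65 ± 0.21 in the same order, also under 2-fold.

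Of the other members in TRAP RNA, Stab1 rose by 2.34, 2.73 and 2.89, Cd163 by 2.36, 2.39 and 2.20, F13a1 by 2.14, 2.14 and 1.84, Ms4a7 by 1.79, 1.55 and 1.61 and Lyve1 by 1.26, 1.64 and 1.47 as log2 values for Dounce, then without and with inhibitors. Without the Dounce-TRAP library of mouse 180, the highest of its group for Lyve1, that gene was not called after Dounce (0.96). Without the Tissue-TRAP library of mouse 948 1 more member was called, Pf4 (1.03) after Dounce and Cbr2 (1.02) without inhibitors, and Cbr2 (1.05) was also called without the Cell (-) Inhibitors library of mouse 157. All 8 genes were called higher in TRAP than in Input in Tissue (8.21% of 15894 genes), Dounce (20.8%), Cell (-) Inhibitors (10.6%) and Cell (+) Inhibitors (9.71%). The log2 fold changes ran from 3.45 to 5.23 in Tissue, 3.77 to 4.77 in Dounce, 1.97 to 2.70 without and 1.77 to 2.45 with inhibitors, and the differences between preparations were not tested. In Dounce the same pull-down took the summed neutrophil list from 295 to 1834 CPM in Input to 6.79 to 40.99 CPM in TRAP.

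The inhibitors were followed by no called change in these genes. Between Cell (+) and Cell (-) Inhibitors none of the 8 was called in Input RNA (0.311% of genes were) or in TRAP RNA (0.638%), none had an unadjusted p under 0.05 in these fits without a block, and DESeq2 and limma called none. Both suspensions came from the same 4 mice, and with the mouse as a block none was called either, with 1 unadjusted p under 0.05 (Stab1 in TRAP, 0.20 ± 0.08, FDR 0.11). In Input the log2 differences ran from -0.03 for F13a1 to 0.20 for Stab1, and in TRAP from -0.29 for F13a1 to 0.16 for Stab1. Without the block the 95% intervals allow changes of some size: that for Mrc1 in TRAP RNA ran from -0.68 to 0.33, for Lyve1 from -0.75 to 0.41 and for F13a1 from -0.70 to 0.12. With the block the values were -0.08 ± 0.15 for Mrc1 and -0.13 ± 0.18 for Lyve1. On the microglial scale none was called in TRAP either (0.591% of genes), with none at an unadjusted p under 0.05.

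On the microglial scale the preparations separated the members from one another. In Input, Pf4 (-1.33 ± 0.43), Cbr2 (-1.56 ± 0.46) and Stab1 (-1.12 ± 0.24) were called lower after Dounce (83.4% of genes were), and Cd163 (-1.31 ± 0.37) and Pf4 (-1.04 ± 0.41) in Cell (-) Inhibitors (93.8%). In TRAP, Lyve1 (-1.32 ± 0.35), Pf4 (-1.70 ± 0.29) and Cbr2 (-1.83 ± 0.24) were called lower after Dounce (85.9%) and Mrc1 (1.12 ± 0.30) higher (0.788%), while Pf4 (-1.86 ± 0.29), Ms4a7 (-1.07 ± 0.28) and Cbr2 (-1.74 ± 0.23) were called lower in Cell (-) Inhibitors (86.9%). With the 11 shared genes as the scale, none was called lower after Dounce in TRAP (Lyve1 -0.45, Pf4 -0.83 and Cbr2 -0.97), Stab1 was not called after Dounce in Input (-0.85), and in Cell (-) Inhibitors TRAP Ms4a7 was not called (-0.56) and Mrc1 was called higher (1.24). Without the Dounce-TRAP library of mouse 180, Mrc1 was not called (0.85) and Ms4a7 was called lower (-1.02). The members as a percentage of the microglial genes were 9.64 ± 0.98% in Tissue-Input, 5.78 ± 1.75% in Dounce, 5.98 ± 1.55% without and 5.67 ± 1.22% with inhibitors, and in TRAP 11.2 ± 0.90%, 6.97 ± 2.09%, 6.98 ± 2.33% and 6.07 ± 1.05% (SD, n = 4 each), with Tissue above and apart from the 3 suspensions in both fractions.

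Within a group, the 8 genes went up and down together from mouse to mouse. Each gene's log2(CPM + 1) was taken as its difference from the group mean, over 24 Input and 24 TRAP libraries, and correlated with each member among 13035 genes with a mean of at least 1 CPM. Libraries of one group differ in depth and cell content, which all genes share, so the correlations are given as a description. The mean correlation with the other members was 0.84 for F13a1, 0.83 for Mrc1, 0.82 for Cbr2, 0.76 for Cd163, 0.75 for Lyve1, 0.73 for Ms4a7, 0.67 for Pf4 and 0.65 for Stab1, against a median of 0.03 over all genes. F13a1, Mrc1 and Cbr2 ranked 1, 2 and 3 of all genes, and Stab1 ranked 54. The 10 other genes most like the members were Tlr8 (0.78), Folr2 (0.78), Aoah (0.78), Dab2 (0.77), C4b (0.77), Tgfbi (0.76), Cd36 (0.75), Cybb (0.74), Clec4a1 (0.73) and Serpinb8 (0.73). Folr2, Dab2 and Cd36 belong to the list of other border macrophage genes, whose 19 members had a median of 0.64. The median was 0.70 for 4 MHC class II genes, 0.28 for 4 monocyte genes, 0.16 for 11 genes shared by macrophages and microglia, 0.07 for the 10 microglial identity genes, -0.02 for 4 platelet genes and 0.00 for 7 brain endothelial genes.

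**Figure D5:**
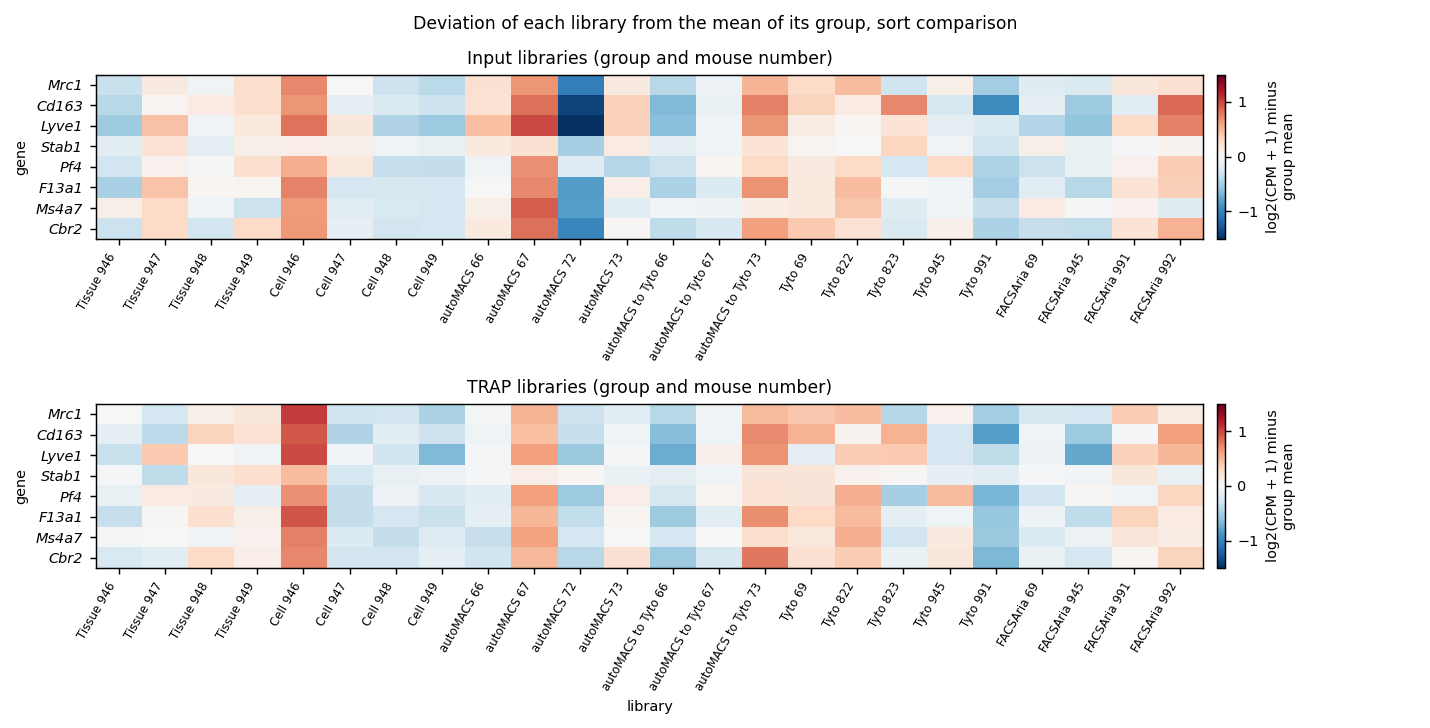
Deviation of each library from its group mean, in log2(CPM + 1), for the 8 genes (rows) in the 24 Input (top) and 24 TRAP (bottom) libraries of the sort comparison (columns, by group and mouse number). Red columns mark libraries above their group in most genes (Cell of mouse 946, autoMACS of mouse 67, autoMACS to Tyto of mouse 73) and blue columns those below (autoMACS-Input of mouse 72, Tyto of mouse 991).

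The Cell libraries of mouse 946 also differed in other gene lists. MHC class II genes summed to 1750 CPM in its Cell-TRAP library against 465 to 655 CPM in the other 3, and other border macrophage genes to 7438 CPM against 4476 to 4856 CPM. Microglial identity genes summed to 23520 CPM against 24800 to 26700 CPM, and the genes shared by macrophages and microglia to 28070 CPM against 28060 to 28980 CPM. In Cell-Input the microglial genes of this mouse summed to 4707 CPM against 6264 to 6336 CPM, MHC class II genes to 449 CPM against 225 to 272 CPM and monocyte genes to 324 CPM against 300.1 to 404 CPM. The Tissue-Input library of the same mouse was the lowest of its group for 7 of the 8 genes, while its Cell-Input library was the highest for all 8. In Tissue-Input of the preparation comparison this mouse had the highest Mrc1 (5.83 CPM) and Cbr2 (1.46 CPM) of its group, so the low Tissue rank was not repeated for these genes. Its Lyve1 (0.402 CPM) was again the lowest.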

How the data were processed

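Poly(A) RNA of 80 libraries was sequenced, and per the labels each replicate is a mouse. The authors aligned reads to mm10 with Strand NGS, removed duplicates and deposited estimated counts per gene, beside log2 values normalized with DESeq2. Of the deposited estimated counts 33.2% (sort) and 20.8% (cell preparation) were whole numbers, and they were rounded. The tables were normalized separately, so tests stayed within a table.

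A gene was tested where all samples of 1 group or more exceeded 5 counts, using edgeR 4.0.16 (TMM, quasi-likelihood F-test, R 4.3.3), and all 8 genes passed. Calls needed a Benjamini-Hochberg FDR under 0.1 over all genes and more than 2-fold. Alternatives were DESeq2 1.42.0 and its size factors, limma 3.58.1 on the authors' log2 values, a stricter filter, other scales, the mouse as a block and leaving out each library. The results of 1 other scale are not reported here. The edgeR fit of Cell-Input against Tissue-Input was run on simulated counts. These held far fewer changed genes than were called here, so they do not test TMM at such shifts. A pseudocount of 1 was used for log2(CPM + 1).

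Tissue and Cell, (-) and (+) inhibitors, and Input and TRAP came from the same mice, which gives the pairing; autoMACS and autoMACS to Tyto, and Tyto and FACSAria, shared 3 mice each. Same-mouse deviations correlated at -0.154 to 0.499 over 18 pairs of groups. Deposited fold changes and p-values were not used. The members and gene lists were chosen with earlier results of these data known. All 8 members are named, with up to 3 genes of highest level in another list and the 10 genes most like the members.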

Additional observations from a re-analysis of the deposited data

Results flagged for a closer look

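Within groups of 4 or 5 mice, 11 of 144 sets of values held a library far from the others by Dixon's test, where chance gives about 1 in 20. Of these, 9 were Cell libraries of mouse 946. In Cell-Input they were Cd163 at 55.9 CPM, F13a1 at 60.6 CPM, Ms4a7 at 6.10 CPM and Cbr2 at 23.95 CPM. In Cell-TRAP they were Mrc1 at 978 CPM, Cd163 at 384 CPM, F13a1 at 471 CPM, Ms4a7 at 36.7 CPM and Cbr2 at 155 CPM. The other 2 were Cbr2 at 4.75 CPM in the Dounce-Input library of mouse 179 and Ms4a7 at 38.2 CPM in the Cell (+) Inhibitors-TRAP library of mouse 157.

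The enrichment of TRAP over Input was smaller in Cell than in Tissue by the test of the difference for Pf4 (-2.14), Ms4a7 (-2.01), Cbr2 (-1.59), F13a1 (-1.52) and Stab1 (-1.14), on the log2 scale.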

How the results depend on the processing

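Outside the microglial scale, no call changed direction with DESeq2's size factors, DESeq2's test, limma, the other filters or the mouse as a block. Directions were not compared this way for the microglial scale or for the fits that left out a library. With at least 10 counts required in every sample, Ms4a7 and Pf4 left the sort Input fit and Lyve1, Pf4, Ms4a7 and Cbr2 the preparation Input fit, which left 5 members called higher after autoMACS, 5 after Tyto and 4 after FACSAria, and 4 in each suspension against Tissue and in each preparation's TRAP against Input. Between the sorts in TRAP RNA limma called 1. The smaller TRAP enrichment in Cell was called for 8 with DESeq2's size factors, DESeq2's test, limma and the mouse as a replicate block. On the microglial scale the replicate block gave 1 call for Cell-Input against Tissue-Input and 1 for TRAP against Input in Tissue. With the 11 genes shared by macrophages and microglia as the scale there was 1 call for the sorts against Cell-TRAP and 1 for Dounce TRAP. On that scale the lower calls of Pf4, Ms4a7 and Cbr2 in Cell-TRAP against Tissue-TRAP gave way to higher calls of Mrc1 and Cd163. The block changed no other call. No paired analysis was possible for the sorts against Cell or the preparations against Tissue because their mice differ, nor across the 4 sorts because no mouse links the bead sorts with the others.

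Leaving out 1 library at a time gave 7 to 8 calls after autoMACS and after Tyto in Input, 6 to 8 after FACSAria and 0 to 2 between the sorts. In TRAP it gave 7 to 8 for Cell against Tissue, 0 to 1 after autoMACS, autoMACS to Tyto and Tyto, 1 to 4 after FACSAria and 0 to 5 between the sorts. For TRAP against Input it gave 0 to 2 after autoMACS to Tyto and 5 to 8 for Cell minus Tissue. In the preparations it gave 7 to 8 for Dounce Input, 5 to 7 for Dounce TRAP and 6 to 7 for Cell (-) Inhibitors TRAP. On the microglial scale it gave 0 to 2 for Cell-Input, 0 to 3 for the sorts in Input, 2 to 3 for Cell-TRAP, 1 to 2 for the sorts in TRAP, 0 to 1 for Tissue TRAP against Input, 2 to 4 for Dounce Input, 1 to 4 for Cell (-) Inhibitors Input and 2 to 4 for Cell (-) Inhibitors TRAP. The causes were not tested. The values of Ms4a7 in Tissue-Input rest on 0 to 10 counts and those of Lyve1 in Dounce-Input on 4 to 52, so their counting error is large.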
